A study of Mus musculus with 12 samples.

Results

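The epithelial-mesenchymal transition (EMT) regulators described here are 10 genes: the inducers Snai1, Snai2, Twist1, Twist2, Zeb1, Zeb2 and Foxc2, the epithelial guardians Grhl2 and Esrp1, and Vim, which encodes vimentin. They were taken by symbol from a table of read counts for 22880 genes, and 10 of 10 were found in it. The cells were of the mouse mammary carcinoma line 4T1, whose tumours seed lung metastases, in 4 groups of 3 RNA sequencing libraries. Mock cells carried the plasmid pcDNA3.1, and MYBup cells carried pcDNA3-mMyb, which expresses the mouse transcription factor c-Myb. Untransfected wt cells had not been passaged in mice, and lung3 cells were untransfected and had been passaged 3 times through the lung. The labels give lung metastatic activity as normal for mock and wt, low for MYBup and high for lung3. They do not say whether the plasmid lines are clones or pools, so an effect of Myb and a difference between lines cannot be told apart. Separate cultures are not stated for the 3 libraries of a group either, and the p-values therefore reflect only how far these libraries differ, possibly for technical reasons.

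EMT is the programme by which epithelial cells loosen their junctions and take on the shape and motility of mesenchymal cells. Zinc-finger factors of the Snail and Zeb families bind E-box sequences in epithelial promoters and repress genes such as Cdh1, the gene of E-cadherin, while Twist and Foxc2 act in the same network. Grhl2 activates epithelial genes and opposes Zeb1, and Esrp1 is an RNA-binding protein that sets the epithelial pattern of splicing. Vimentin is the intermediate filament protein most used as a mesenchymal marker, and many breast cancer lines make it together with keratins.

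The promoters below, from RefSeq on GRCm38.p6, show the E-box of the form CAGGTG, or CACCTG on the other strand, in capitals. The sequences are those of 2 regulators that were high in the plasmid lines or in MYBup cells, and of 2 epithelial genes that were lower in both plasmid lines than in wt. Both epithelial genes also averaged lower in lung3 than in wt, though neither difference passed the test described below. Each sequence is the 250 bases before a transcription start, 5′ to 3′ on the gene's strand.
Twist1, chr12:33957421-33957670, plus strand: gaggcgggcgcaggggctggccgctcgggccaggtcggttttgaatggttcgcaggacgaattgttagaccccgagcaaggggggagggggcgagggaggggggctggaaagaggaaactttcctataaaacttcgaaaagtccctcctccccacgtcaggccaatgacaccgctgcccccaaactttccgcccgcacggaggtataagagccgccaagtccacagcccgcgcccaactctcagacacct
Snai1, chr2:167537945-167538194, plus strand: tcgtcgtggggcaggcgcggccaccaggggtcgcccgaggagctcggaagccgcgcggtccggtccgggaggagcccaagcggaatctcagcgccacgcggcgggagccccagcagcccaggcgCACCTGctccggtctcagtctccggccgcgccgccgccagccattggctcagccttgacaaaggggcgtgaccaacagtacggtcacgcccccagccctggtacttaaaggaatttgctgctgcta
Epcam, chr17:87635729-87635978, plus strand: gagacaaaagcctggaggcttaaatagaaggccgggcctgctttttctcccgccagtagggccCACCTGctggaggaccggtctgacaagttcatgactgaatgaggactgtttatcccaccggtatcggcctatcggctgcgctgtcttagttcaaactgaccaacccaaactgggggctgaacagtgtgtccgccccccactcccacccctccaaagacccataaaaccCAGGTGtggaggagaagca
Cldn4, chr5:134946935-134947184, minus strand: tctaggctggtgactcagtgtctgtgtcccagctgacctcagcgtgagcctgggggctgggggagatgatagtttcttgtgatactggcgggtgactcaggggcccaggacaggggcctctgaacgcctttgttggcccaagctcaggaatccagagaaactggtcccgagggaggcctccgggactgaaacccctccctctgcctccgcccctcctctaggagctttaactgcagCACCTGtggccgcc
The Twist1 stretch holds no E-box of this form, that of Snai1 holds 1 that begins 126 bases before the start, and that of Epcam holds 2, at 187 and 19 bases before it. In Cldn4 the E-box begins 14 bases before the start. These stretches are examples, and other genes lower in both plasmid lines varied. Cldn7 and Ocln each had 1 such stretch with 0 E-boxes and another with 2. Both stretches of Tjp3 held 1.

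Over all 32851 promoter windows of 300 bases (250 before to 50 after a start), 20.2% held this E-box on either strand. Counted by gene, 6098 of 27025 held it in at least 1 window. Of the 20 epithelial targets listed here, genes of junctions, keratins and polarity, 16 had a window in the RefSeq table and 13 of these genes held the E-box. Of the 10 regulators, 5 had a window, and 1 of these, Snai1, held it. These are matches of letters and no evidence of binding.

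The mammary epithelial identity of the cells was checked on 7 keratin and junction genes, whose summed level ran from 2490 to 3346 CPM, the read count scaled to the size of its library, over the 12 libraries. Krt8, Krt18, Epcam and Cdh1 were present in every group, and of the basal keratin genes Krt5 had 1 count in all and Krt14 averaged 1.84 CPM in mock, 8.39 in MYBup, 7.59 in wt and 34.8 in lung3. Krt14 rose in MYBup against mock (log2 fold change 2.19, edgeR adjusted p = 0.00109) and in lung3 against wt (2.21, adjusted p = 0.00104). Against wt, Krt14 fell in mock (-2.04, edgeR adjusted p = 0.0011), while MYBup stood near wt (0.15, adjusted p = 0.732). Myb stood at 39.3, 42.9 and 39.8 CPM in MYBup replicates 1 to 3 and between 4.49 and 6.80 CPM in mock, which matches the labels. Total counts ran from 8912989 to 24745660. Values are CPM after scaling by the trimmed mean of M values (TMM), and calls are those of edgeR's quasi-likelihood test with Benjamini-Hochberg adjusted p under 0.05 over 11291 genes that passed a filter on low counts.

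Per kilobase of exon, Vim exceeded the other regulators by far, and the Snai1, Twist1, Foxc2, Grhl2 and Esrp1 transcripts lay close together. Vim averaged 830 CPM per kilobase over all libraries, Twist1 11.7, Esrp1 9.72, Snai1 7.09, Grhl2 5.85, Foxc2 4.70 and Zeb2 3.41. In wt cells Twist1 (8.74 ± 0.645, SD, n = 3), Esrp1 (7.34 ± 0.741), Grhl2 (6.06 ± 0.0541) and Snai1 (6.04 ± 0.883) stood in that order, and Grhl2 and Snai1, neighbours in it, did not differ beyond their spread. The order was not the same in every group, since Foxc2, at 2.82 ± 0.589 in wt, reached 7.76 ± 1.97 in MYBup. Zeb2 is divided by the 19942 bases of all its annotated exons, which places it lower than a shorter transcript would. At the foot of the order were Zeb1 (0.0458), Snai2 (0.016) and Twist2, which had no count. In the libraries of the MYBup group Vim ranked between 16 and 21 of all genes on this scale, and in lung3 between 45 and 75.

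**Figure D1:**
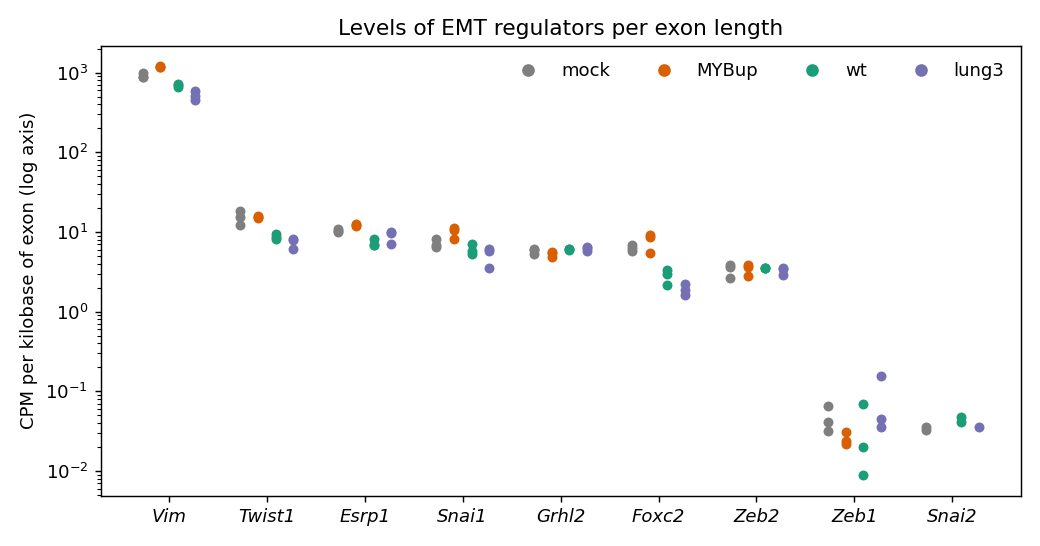
CPM per kilobase of exon on a log axis for the 9 regulators with any count, 1 point per library with a count and colour by group. Vim lies far above the rest, Zeb1 and Snai2 lie far below, and the other genes lie close together.

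Of the 10 regulators 7 passed the filter on low counts (Snai1, Twist1, Zeb2, Foxc2, Grhl2, Esrp1 and Vim), and 3 did not. Snai2, the gene of Slug (ENSMUSG00000022676, chromosome 16, 14705852 to 14709385), had 0, 1 and 1 counts in mock, 0, 0 and 0 in MYBup, 0, 2 and 2 in wt and 1, 0 and 0 in lung3. Twist2 (ENSMUSG00000007805, chromosome 1, 91801461 to 91848028), a close relative of Twist1, had 0 counts in each of the 12 libraries. A count of 0 over 3 libraries allows up to 0.0595 CPM in mock, 0.0673 in MYBup, 0.0447 in wt and 0.0814 in lung3, counting error only. Neither gene was therefore detectable above a trace, and no difference between groups could be read from them. Snai2 was not called in any comparison of a fit without the low-count filter, and Twist2 has no value there.

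Zeb1, the Zeb family member best known in breast cancer (ENSMUSG00000024238, chromosome 18, 5591860 to 5775467), was close to silent. Its counts in replicates 1 to 3 were 14, 6 and 5 in mock, 3, 3 and 6 in MYBup, 2, 5 and 15 in wt and 5, 4 and 23 in lung3. The third library was the highest of its group in both wt and lung3, and the 2 groups overlapped. Summed over libraries the ratio of lung3 to wt was 2.65, with an exact 95% counting interval from 1.49 to 4.78. Without lung3 replicate 3 it was 1.22 (0.496 to 2.77), and without wt replicate 3 it was 5.74 (2.49 to 15.4). Each of these leaves out only 1 library of a same-numbered pair. In replicates 1 to 3 Zeb1 stood at 0.364, 0.462 and 1.59 CPM in lung3 and 0.0909, 0.207 and 0.719 in wt. Each lung3 library thus lay above the wt library of the same number. The replicate block over 12 libraries kept the low-count filter and gave no value for Zeb1. The ratio of MYBup to mock was 0.543 (0.249 to 1.12). These intervals leave out the spread between libraries. In the fit without the low-count filter Zeb1 was not called, with a log2 fold change of 1.34 in lung3 against wt (SE 0.61, edgeR adjusted p = 0.263) and -0.86 in MYBup against mock (SE 0.71, adjusted p = 0.471).

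Vim (ENSMUSG00000026728, chromosome 2, 13573927 to 13582826) was the regulator that separated the 4 groups. It stood at 4187, 4688 and 4232 CPM in mock, 5567, 5580 and 5695 in MYBup, 3331, 3170 and 3386 in wt and 2438, 2134 and 2814 in lung3. No group overlapped another, with MYBup on top, then mock, wt and lung3. Vimentin transcript was thus highest in the cells labelled with low lung metastatic activity and lowest in those labelled high. Each of these labels has only 1 group, and mock and wt, both labelled normal, differed by 0.41 on the log2 scale without overlap. A link between Vim and the label was not tested. Its log2 fold change was 0.36 in MYBup against mock (SE 0.0987, edgeR adjusted p = 0.016) and -0.42 in lung3 against wt (SE 0.0988, edgeR adjusted p = 0.0253). These comparisons share no library, and the difference between their log2 fold changes was 0.78 (SE 0.14, edgeR adjusted p = 0.00196). The call in MYBup ended without mock replicate 1 (adjusted p = 0.0637). The call in lung3 ended without any 1 of wt replicates 1, 2 and 3 or lung3 replicates 1 and 2, with adjusted p from 0.0534 to 0.0976, while the log2 fold change stayed between -0.45 and -0.33 in these fits. With the replicate number as a block in the 6 libraries of lung3 and wt the adjusted p was 0.000734. That fit was chosen after the data were seen, and the block over 12 libraries gave 0.0347. In MYBup against mock the block in 6 libraries ended the call (adjusted p = 0.146). Against wt, Vim was higher by 0.41 in mock (adjusted p = 0.00619) and by 0.77 in MYBup (adjusted p = 8.32e-05).

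Markers of host fibroblasts, cells rich in vimentin, summed to 36.9 to 49.1 CPM in mock, 38.9 to 48.8 in MYBup, 21.7 to 30.2 in wt and 16.1 to 22.04 in lung3. Nearly all of this was Pdgfra, the gene of a platelet-derived growth factor receptor, at 40.9, 45.1, 26.6 and 18.1 CPM in these groups, and Lum was at 0 in all 12 libraries. The defining collagen genes Col1a1 and Col1a2 stood at no more than 0.226 CPM in any group mean. Leukocyte markers summed to 8.08 to 8.46 CPM in lung3 and 4.75 to 6.38 in wt, mostly Cd68, with Cd3e at 0 in each group. Endothelial markers summed to at most 0.496 and lung epithelial markers to at most 0.208 CPM in any library, and Sftpc, Sftpb, Sftpa1 and Sftpd had no count. The part of these cells in the Vim result was not tested, and in bulk RNA fewer cells of a type and less RNA per cell cannot be told apart.

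Snai1, the gene of the repressor Snail (ENSMUSG00000042821, chromosome 2, 167538195 to 167542814), was highest in MYBup cells. It stood at 11.2, 10.6 and 13.2 CPM in mock, 13.4, 17.1 and 18.3 in MYBup, 11.4, 8.67 and 9.30 in wt and 9.24, 5.66 and 9.91 in lung3. MYBup lay above mock without overlap, and the nearest libraries were MYBup replicate 1 and mock replicate 3. The log2 fold change in MYBup against mock was 0.49 (SE 0.18) and just missed the threshold with an edgeR adjusted p of 0.0582, but it passed with DESeq2 (0.0464), limma voom (0.0439), no low-count filter (0.0442), the 6 libraries alone (0.0462) and the replicate block over 12 libraries (0.0485), though the replicate numbers of these groups were not taken as pairs. It also passed without mock replicate 3 (0.0437) or MYBup replicate 1 (0.0334). It missed with RLE size factors (0.0564), with the block in 6 libraries (0.0617) and without mock replicate 1 (0.158), mock replicate 2 (0.116), MYBup replicate 2 (0.144) or MYBup replicate 3 (0.204). Against wt it rose by 0.74 in MYBup (SE 0.18, adjusted p = 0.00578), whereas in mock it had a log2 fold change of 0.25 (adjusted p = 0.299). In lung3 against wt it had -0.21 (adjusted p = 0.578), and the 2 groups overlapped.

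Twist1, a basic helix-loop-helix inducer (ENSMUSG00000035799, chromosome 12, 33957671 to 33959829), split the groups by plasmid. Its levels were 20.2, 25.3 and 29.6 CPM in mock, 24.8, 25.7 and 24.4 in MYBup, 15.4, 13.4 and 13.9 in wt and 9.89, 13.2 and 12.96 in lung3. Each plasmid library lay above each untransfected one. The mean in MYBup equalled that in mock to within the spread (log2 fold change 0.00, 95% interval -0.26 to 0.27), and both exceeded wt by 0.81 (edgeR adjusted p = 0.000602 for mock and 0.000578 for MYBup). Lung3 lay below wt without overlap but was not called (log2 fold change -0.25, adjusted p = 0.352).

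Foxc2, a forkhead factor (ENSMUSG00000046714, chromosome 8, 121116171 to 121118895), had the largest fold change among the tested regulators against wt. It stood at 15.7, 17.1 and 18.9 CPM in mock, 14.99, 24.8 and 23.6 in MYBup, 7.998, 5.95 and 9.11 in wt and 4.44, 6.12 and 5.06 in lung3. Both plasmid groups lay above both untransfected groups, while MYBup overlapped mock and lung3 overlapped wt. Against wt it rose 2.24-fold in mock (log2 fold change 1.17, SE 0.19, adjusted p = 0.00054) and 2.77-fold in MYBup (1.47, SE 0.19, adjusted p = 9.43e-05). The log2 fold change in MYBup against mock was 0.30 (adjusted p = 0.246), and 0.49 with a call without MYBup replicate 1 (adjusted p = 0.0426). In lung3 against wt it was -0.58 (SE 0.22, adjusted p = 0.152). With the replicate number as a block in the 6 libraries of lung3 and wt it was -0.59 and called (adjusted p = 0.0317). That fit was chosen after the data were seen, and the block over 12 libraries gave -0.58 without a call (adjusted p = 0.125). The difference between the effects in MYBup against mock and in lung3 against wt was 0.88 (SE 0.29, edgeR adjusted p = 0.0467). Its call ended with limma voom (0.0775) and without any 1 of 9 of the 12 libraries (adjusted p from 0.052 to 0.113). The exceptions were mock replicate 3, MYBup replicate 1 and wt replicate 2.

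Zeb2 (ENSMUSG00000026872, chromosome 2, 44983632 to 45117395), the expressed member of the Zeb pair, was level across the groups. It stood at 77.0, 53.1 and 72.4 CPM in mock, 55.8, 76.9 and 73.2 in MYBup, 69.6, 70.4 and 69.8 in wt and 58.4, 68.2 and 71.1 in lung3. All groups overlapped, and the low libraries were mock replicate 2, MYBup replicate 1 and lung3 replicate 1. Mock replicate 2 and MYBup replicate 1 also moved together over all tested genes, with a correlation of 0.636 between their deviations from the group means. The log2 fold change was 0.02 in MYBup against mock (interval -0.25 to 0.30) and -0.09 in lung3 against wt (interval -0.36 to 0.19), neither called (adjusted p = 0.926 and 0.783).

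Grhl2, the grainyhead-like epithelial factor (ENSMUSG00000022286, chromosome 15, 37233036 to 37363569), ran from 41.5 to 56.0 CPM over the 12 libraries and was called in no comparison. Its levels were 51.6, 45.3 and 53.1 CPM in mock, 41.5, 48.9 and 47.6 in MYBup, 52.7, 52.2 and 51.7 in wt and 53.5, 56.0 and 50.2 in lung3. MYBup lay below wt without overlap and overlapped mock. The log2 fold change was -0.12 in MYBup against mock (interval -0.29 to 0.05, adjusted p = 0.332), 0.03 in lung3 against wt (interval -0.14 to 0.19, adjusted p = 0.9) and -0.18 in MYBup against wt (interval -0.35 to -0.01, adjusted p = 0.109).

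Esrp1, the splicing regulator (ENSMUSG00000040728, chromosome 4, 11331933 to 11386783), was higher in the plasmid lines, on the same side as Vim, Twist1 and Foxc2. It stood at 69.2, 63.2 and 64.3 CPM in mock, 74.1, 79.9 and 77.6 in MYBup, 43.9, 43.2 and 51.6 in wt and 60.9, 62.7 and 44.4 in lung3. MYBup lay above mock, and mock above the untransfected groups, with lung3 replicate 3 at the level of wt. It rose against wt by 0.50 in mock (SE 0.12, adjusted p = 0.00449) and by 0.74 in MYBup (SE 0.12, adjusted p = 0.000352). The log2 fold changes of 0.23 in MYBup against mock (adjusted p = 0.152) and 0.27 in lung3 against wt (adjusted p = 0.205) were not called. The latter was 0.42 and called without lung3 replicate 3 (adjusted p = 0.0294).

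**Figure D2:**
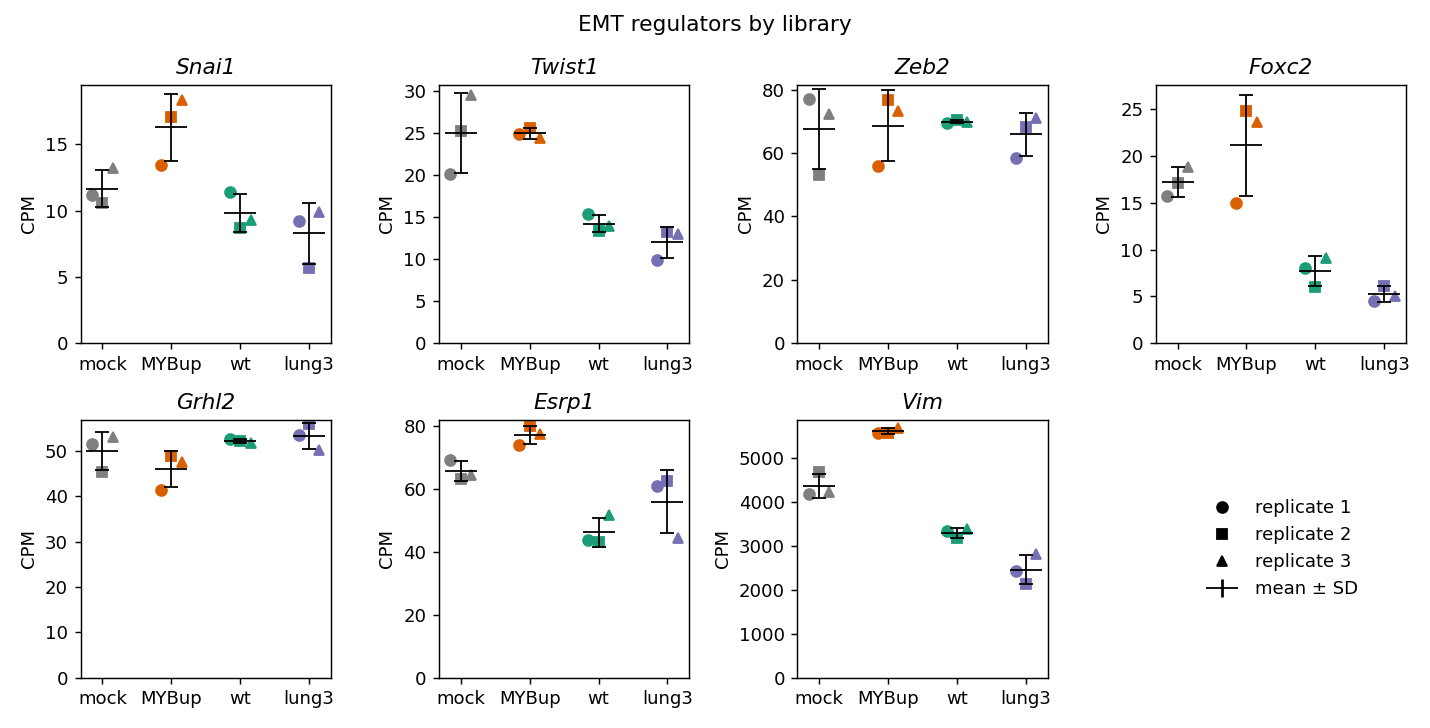
CPM of the 7 tested regulators in each library, with the group mean and SD (n = 3) and a symbol per replicate. Vim separates all 4 groups, Twist1, Foxc2 and Esrp1 are higher in mock and MYBup than in wt, and Zeb2 and Grhl2 are level.

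Counted over the 7 tested regulators, MYBup against mock gave 1 higher (Vim), 0 lower and 6 not called, where 26.9% of all tested genes were called. Lung3 against wt gave 0 higher, 1 lower (Vim) and 6 not called, against 5.36% of all genes in either direction, 2.91% higher and 2.44% lower. Mock against wt gave 4 higher (Twist1, Foxc2, Esrp1 and Vim) and 0 lower, against 35.9%, and MYBup against wt gave 5 higher (these and Snai1) and 0 lower, against 38.2%. The last pair share the wt libraries. The median log2 fold change of the 7 was 0.23, -0.21, 0.41 and 0.74 in these comparisons, and that of all tested genes was between -0.0047 and 0.0015. Groups did not overlap for 3, 2, 4 and 6 of the 7, against 40.6%, 27.4%, 46.9% and 55.6% of all tested genes. The difference between the effects in MYBup and in lung3 was called for 2 of 7, Vim and Foxc2, both with the higher value in MYBup against mock, compared with 19.9% of genes in either direction, 10.4% higher and 9.52% lower.

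**Figure D3:**
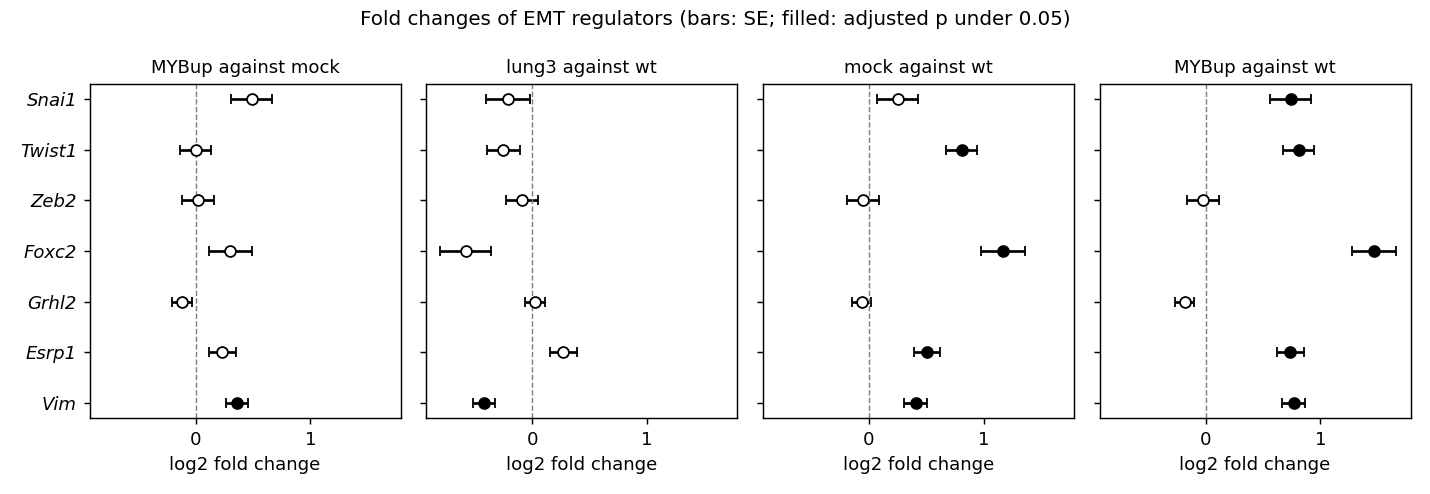
Log2 fold changes (horizontal axis) of the 7 tested regulators in 4 comparisons, with the SE as bars and filled points for adjusted p under 0.05. Filled points number 1, 1, 4 and 5 from left to right, and Vim is to the left of 0 in lung3 against wt alone.

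Epithelial genes known as targets of these factors differed mainly between the plasmid lines and wt. Of 20 listed genes, all tested, 13 fell and 5 rose in mock against wt, and 13 fell and 4 rose in MYBup against wt, with median log2 fold changes of -0.67 and -0.61. Of all tested genes 17.9% fell and 18% rose in mock against wt, and 18.7% fell and 19.4% rose in MYBup against wt. This list, like the others below, was chosen with earlier results of these data known. Its counts beside these shares are therefore a description and no test. Cdh1, the gene of E-cadherin and chosen for its role after its values were seen, stood at 290.5, 257 and 283 CPM in mock, 254, 267 and 262 in MYBup, 443, 464 and 537 in wt and 423, 442 and 524 in lung3. It fell by 0.80 in mock and by 0.88 in MYBup against wt (adjusted p = 5.79e-05 and 2.32e-05). Rab25, a small GTPase of epithelial recycling, had 1 count over the mock libraries, 8 over MYBup, 619 over wt and 154 over lung3. The ratio of wt to mock was 465, with a 95% counting interval from 83.2 to 18403. Among the keratin genes, Krt8 rose in both plasmid lines and Krt18 in mock. The claudin gene Cldn3, Jup and Spint1 also rose in both plasmid lines. Cldn3 averaged 51.4 CPM in mock, 36.6 in MYBup, 8.05 in wt and 13.2 in lung3. All 10 genes that fell in mock and had a promoter window held the E-box, as did 3 of the 5 that rose and had one. In MYBup against wt it was held by 10 of 11 that fell and 2 of 4 that rose. The list was of known targets of factors such as Snail and Zeb, which bind E-boxes, and 13 of its 16 genes with a window held it. A link between the E-box and the direction of change was not tested.

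In MYBup against mock 2 of these 20 targets rose and 1 fell, where 26.9% of all tested genes were called: Marveld3, a tight junction gene (log2 fold change 2.27), and St14, the gene of the protease matriptase (0.30), rose, and Cldn4, a claudin gene (-0.86), fell. In lung3 against wt Tjp3, a junction scaffold gene, rose by 1.39 and Rab25 fell by 1.18 on the log2 scale, and 18 were not called, where 5.36% of all tested genes were called. The medians were -0.04 and -0.09. Cdh1 had log2 fold changes of -0.08 (adjusted p = 0.548) and -0.05 (adjusted p = 0.801). Tjp3 had a low level, with means of 2.70 CPM in lung3 and 1.02 in wt.

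The listed mesenchymal genes were mostly at the floor, but some were highly expressed in every group. Fn1 averaged 2134 CPM in mock, 2411 in MYBup, 1632 in wt and 2185 in lung3. Sparc averaged 263, 321, 219 and 232 CPM in these groups. Both are named here for their level, after their values were seen. Of 20 listed, 8 were tested, and Cdh2 and Thy1 had 0 counts in all libraries. Of the 8, 4 rose and 0 fell in MYBup against mock, where 14.3% of all tested genes rose and 12.6% fell. The 4 were Mmp14, a membrane metalloproteinase gene (log2 fold change 0.59), the tenascin gene Tnc (0.57), S100a4 (0.53) and the integrin gene Itga5 (0.28), the last named after its values were seen because it completes the count. Itga5 kept its call in 4 of 13 alternatives and lost it in 9 (adjusted p up to 0.168). S100a4, a calcium-binding protein gene linked to metastasis, also rose in lung3 against wt (0.42), the 1 called of 8, while Mmp14 had -0.11 there. In that comparison S100a4 lost its call without any 1 of the 6 libraries and with the replicate block over 12 libraries (adjusted p up to 0.187). Against wt, 1 of the 8 rose in mock and 6 in MYBup, and 0 fell in either, where 18% and 19.4% of all tested genes rose. The medians were 0.51, 0.25, 0.25 and 0.63 in MYBup against mock, lung3 against wt, mock against wt and MYBup against wt.

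**Figure D4:**
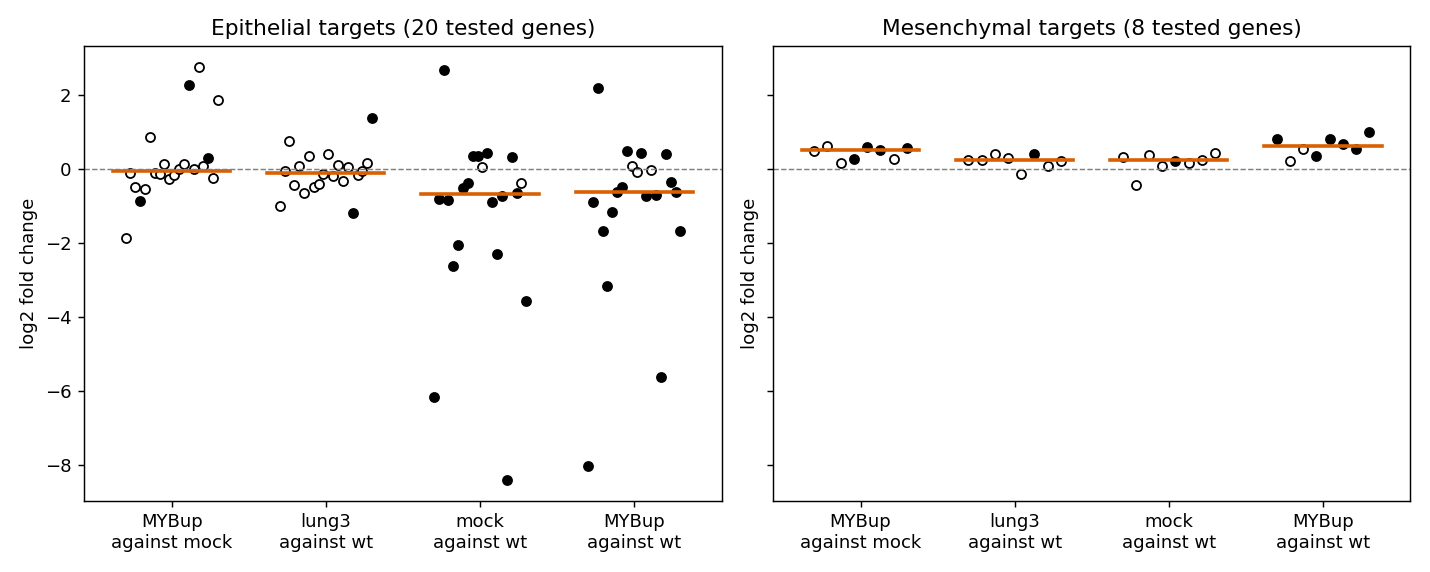
Log2 fold changes of the tested epithelial (left) and mesenchymal (right) targets in 4 comparisons, 1 point per gene, filled for adjusted p under 0.05, with the median as a line. Against wt most epithelial targets lie below 0 in both plasmid lines, and the 8 mesenchymal targets all lie above 0 in MYBup against mock.

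Other factors of the epithelial state moved both ways, and in these lists too the shares of all tested genes called were 26.9% in MYBup against mock and 5.36% in lung3 against wt. Of 12 tested of 14, 2 rose and 5 fell in MYBup against mock, including Grhl1, a relative of Grhl2 (log2 fold change 1.57), Foxa1 (-1.03) and Gata3 (0.65), luminal transcription factor genes. In lung3 against wt 2 rose and 1 fell, among them Elf3, an epithelial ETS factor gene (0.97), and Gata3 (-0.53). The largest absolute log2 fold changes in this list were 7.06 in MYBup against mock and 5.87 in lung3 against wt. They lay outside the rule by which genes were named. The largest absolute difference between the 2 effects in this list was 12.9, also the largest of all tested genes. Of 14 tested of 16 other reported inducers, 2 rose and 2 fell in MYBup, with Klf8 at -2.65, the chromatin protein gene Hmga2 at 0.54 and Sox9 at -0.38, and 0 rose and 2 fell in lung3, Fosl1 (-0.49) and Sox9 (-0.40). Sox9 thus fell in both. Klf8, Grhl1 and Foxa1 had low levels. In MYBup and mock, Klf8 averaged 0.416 and 2.68 CPM, Grhl1 2.48 and 0.837, and Foxa1 1.55 and 3.22.

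Upstream, 5 of 16 tested genes of TGF-beta signalling rose and 3 fell in MYBup against mock, where 26.9% of all tested genes were called. In lung3 against wt 0 of 16 were called, where 5.36% of all tested genes were. In MYBup against mock the ligand gene Tgfb2 rose by 1.47, the inhibitory Smad6 by 1.02 and Id1, a classical BMP target, by 0.90. Tgfb2 averaged 2.53 CPM in mock, 6.83 in MYBup, 5.18 in wt and 9.93 in lung3, so mock was its low group. Smad6 and Id1 had their highest means in MYBup. At an unadjusted p under 0.05 the lung3 comparison held 7 of these 16, but the share of all tested genes at that threshold was not computed. DESeq2 and limma voom each called 1 in that comparison. Of 17 tested genes of Snail and Zeb protein turnover and their corepressors, 3 rose and 1 fell in MYBup, a share close to the 26.9% of all tested genes, with the deubiquitinase gene Usp27x at -0.47, the kinase gene Lats2 at 0.41 and the ubiquitin ligase gene Fbxw7 at 0.37. In lung3, where 5.36% of all tested genes were called, 0 of 17 were called by edgeR, 2 by DESeq2 and 0 by limma voom. There 4 had an unadjusted p under 0.05, again without the share of all tested genes. Of the 18 genes named by rule from these lists in MYBup, Itga5 aside, 11 were called in every alternative run and 7 (St14, Tnc, S100a4, Sox9, Id1, Lats2 and Fbxw7) lost the call in at least 1, and of the 7 named in lung3, Gata3 and Fosl1 were called in every one. Of the regulators, Zeb2 shares 653 exon bases with Zeb2os on the opposite strand, and Zeb1, Grhl2, Esrp1 and Twist2 share 198, 169, 127 and 1477 with other antisense or noncoding genes. Exons of S100a4, Tjp3, Fosl1, Gata3, Lats2, Elf3, Tgfb2, Tnc and Hmga2 also overlap those of other genes, and since the sources name no strand setting, reads of these pairs may have been mixed.

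The genes whose log2 CPM followed each tested regulator most closely over the 12 libraries are given as a description, since libraries of a group are alike. They were Arpc1b (Pearson r = 0.983) and Pcdhb22 (0.981) for Vim, Fscn1 (0.987) and Gm20605 (0.985) for Snai1, Sinhcaf (0.971) and Nab2 (0.962) for Twist1, and Tspyl1 and Gtf2i (0.971 each) for Foxc2. Zfp26 (0.953) is given for Zeb2. They were, for Grhl2, Fubp3 (0.965) and Ncoa3 (0.958), and for Esrp1 Ntn1 (0.965) and Phtf1 (0.948).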

How the data were processed

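RNA isolated with a column kit was made into TruSeq libraries and sequenced, per the labels' protocols. The deposited table holds raw read counts per Ensembl gene, which the authors did not normalize. The submitters' processing notes list STAR, edgeR and the build GRCm38. No source used here gives versions of these tools, or names the counter, gene models and strandedness. The 2708 values of over 4 digits carry only 4 significant digits, which touches Vim, and 0 columns of libraries were left unused.

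Counts were fitted in edgeR 4.0.16 (TMM scaling, filterByExpr, quasi-likelihood test, R 4.3.3) in 1 fit of 12 libraries with group as the only term, and p-values were adjusted by the Benjamini-Hochberg method over 11291 genes. The procedure was tested on simulated data. Positions and exon lengths come from GENCODE M21, in which 22570 of 22880 identifiers had a symbol. Depth limits low genes, and intervals from counts cover counting error only. Intervals of log2 fold changes are normal 95% intervals from the SE. Alternatives were DESeq2 1.42.0, limma voom 3.58.1, other size factors, no filter, the 6 libraries compared, a replicate block and leaving out each library.

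The members and lists were chosen with earlier results of these data known. From each of 6 lists, up to 3 called genes with the largest absolute log2 fold change and an average log2 CPM of at least 0 were named per main comparison. For each tested regulator the 2 genes with the highest Pearson r of log2 CPM (prior count 2) were named, and 1 of these genes is not reported here. The labels state no pairing of replicate numbers. In lung3 and wt the deviations of same-numbered libraries correlated at 0.329, 0.294 and 0.309, so blocked values stand beside results they change. In MYBup and mock they correlated at -0.191, -0.496 and 0.382, so those numbers were not taken as pairs.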

Additional observations from a re-analysis of the deposited data

How the results depend on the processing

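The 4 calls of regulators in mock against wt and the 5 in MYBup against wt held in each of 12 alternatives, as did Vim's difference between effects in 17. In MYBup against mock the number of regulators called was 1, and 2 with no filter, the replicate block over 12 libraries, 6 libraries, DESeq2 and limma voom, since Snai1 joined Vim. Leaving out 1 library gave 0 to 3 regulators and 2046 to 3386 genes, against 3038. In lung3 against wt it gave 0 to 2 regulators, against 1, and 237 to 688 genes, against 605. For the difference between effects limma voom called 1 regulator, against 2, and leaving out 1 library 1 to 3.

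The replicate block over 12 libraries called 2991 genes in MYBup against mock, 565 in lung3 against wt, 3999 in mock against wt and 4231 in MYBup against wt. The block in the 6 libraries compared, chosen after seeing the data, called 1985 genes and 2 regulators in lung3 against wt, and 1479 genes and 0 regulators in MYBup against mock, where Vim had an adjusted p of 0.146. The block changed the call of no other regulator than Snai1, Foxc2 and Vim, as given.

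Signs turned only in values that were not called. Twist1 in MYBup against mock was -0.0021 with RLE size factors, -0.0070 with no filter, -0.0071 with 6 libraries, -0.0043 with DESeq2, -0.14 without mock replicate 1 and -0.018 without MYBup replicate 2. Zeb2 there was -0.12 without mock replicate 2, -0.065 without MYBup replicate 2 and -0.026 without MYBup replicate 3, and at most 0.14 when 1 library was left out. Against wt, Zeb2 was 0.10 in mock without mock replicate 2 and 0.11 in MYBup without MYBup replicate 1, with lowest values of -0.15 and -0.11. Grhl2 was -0.0087 in lung3 without lung3 replicate 2 and 0.011 in mock without mock replicate 2, within ranges from -0.0087 to 0.068 and from -0.11 to 0.011. The difference between effects was, for Esrp1, 0.0027 without mock replicate 1, 0.0058 without wt replicate 2, 0.032 without lung3 replicate 1 and 0.047 without lung3 replicate 2 (lowest -0.18), and for Zeb2 -0.037 without mock replicate 2 (highest 0.23). The cause was not tested. Depth limits Zeb1 and Snai2, which were tested only without the low-count filter, and Twist2, which had no count.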
